A study of Rattus norvegicus and Ovis aries with 113 samples.

Results

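The genes described here are 9 that mark which fast transmitter a neuron releases, or which inhibitory neurons a tissue holds: the vesicular glutamate transporter genes SLC17A6, SLC17A7 and SLC17A8, the GABA-synthesis genes GAD1 and GAD2, the vesicular inhibitory transporter gene SLC32A1, the glycine transporter gene SLC6A5, and the interneuron genes PVALB and LHX6. They were listed by name, with earlier results of these data known, and were looked up by upper-case symbol in the deposited count tables. All 9 were found among 38675 rat genes, and 8 among 31304 sheep genes. GAD1 was not analysed in sheep.

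Neurons that release glutamate load it into synaptic vesicles with a vesicular glutamate transporter, and the family members divide the brain between them: SLC17A7 (VGLUT1) is known for cortex, hippocampus and cerebellar granule cells, SLC17A6 (VGLUT2) for thalamus, hypothalamus and brainstem, and SLC17A8 (VGLUT3) for scattered neurons that often release another transmitter as well. Neurons that release GABA make it from glutamate with the glutamate decarboxylases GAD1 and GAD2 and load it through SLC32A1 (VGAT), which also carries glycine. Glycine neurons of the brainstem, spinal cord and cerebellum take glycine back up through SLC6A5 (GlyT2). PVALB encodes parvalbumin, a calcium buffer of fast-spiking interneurons and Purkinje cells, and LHX6 encodes a transcription factor of interneurons born in the medial ganglionic eminence.

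RNA was sequenced from 113 libraries of untreated animals. In sheep (Ovis aries), 5 post-pubertal males, numbered 687, 688, 690, 694 and 699, each gave 10 brain dissections and 1 sperm sample, which made 50 brain and 5 sperm libraries. The dissections were frontal (FC), prefrontal (PC), motor (MC), posterior parietal (PPC), visual (VC) and entorhinal (EC) cortex, hippocampus (HC), basal ganglia (BG), cerebellum (CB) and pons. In Sprague Dawley rats (Rattus norvegicus), 15 post-pubertal males gave a whole brain and a sperm sample taken as seminal fluid, and 14 females gave a whole brain and an ovary. Each library is a bulk sample of many cell types, so fewer cells of a type and less RNA per cell cannot be told apart. Levels are counts per 1000000 (CPM) of the library total. They are not corrected for gene length, so levels are compared between samples and never between genes.

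Library totals, in M (1000000 counts), ran from 46.7 to 72.4 M in sheep brain, from 13.7 to 65.1 M in sheep sperm, and from 13.7 to 119 M in the rat groups. A few chosen entries for ribosomal RNA or with placeholder names took 86.9% and 83.1% of the counts of rat brains 1 and 4, and 22.4% to 85.2% of sheep sperm. Other entries of these kinds were not added to these shares. Markers of 3 labelled tissues were read as sums: 7 genes of striatal medium spiny neurons summed to between 1756 and 4160 CPM in basal ganglia and to at most 237 CPM elsewhere in the sheep brain, 6 genes of cerebellar granule cells to between 2856 and 3792 CPM in cerebellum and to at most 119 CPM elsewhere, and 6 hindbrain genes to between 2.12 and 52.6 CPM in pons and to at most 2.16 CPM elsewhere. The pons library of sheep 699 was the one at 2.12 CPM, below the highest frontal cortex library, so that it did not hold more of this list than every other region.

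Some sheep cortical libraries went against their labels. Each library was set beside the mean of the other 4 sheep in every region, over the 1000 genes that varied most between regions, with the 8 genes described here left out. Of the 50 libraries, 27 were closest to their own label, among them all of basal ganglia, cerebellum and pons, with correlations across genes of 0.82 to 0.98. The other 23 were closest to another region, namely 18 of neocortex, 4 of entorhinal cortex and 1 of hippocampus, so the cortical labels were poorly separated by this measure. The library labelled motor cortex of sheep 687 had a correlation of -0.18 with motor cortex and 0.70 with hippocampus. The library labelled entorhinal cortex of sheep 688 had -0.33 with entorhinal and 0.72 with motor cortex, and that of sheep 699 had 0.34 with entorhinal cortex and 0.81 with hippocampus. Smaller mismatches were motor cortex of sheep 688 (0.57 with its label, 0.89 with frontal cortex), entorhinal cortex of sheep 694 (0.42, and 0.74 with hippocampus) and hippocampus of sheep 699 (0.20, and 0.38 with entorhinal cortex). The calls in motor and entorhinal cortex are given below with and without the 3 libraries whose correlation with another region exceeded that with their own label by 0.4 or more, and no library was moved to another group.

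Every gene measured in sheep differed among the 10 regions. In the edgeR test for any difference, all 8 passed at an adjusted p below 0.05, from 1.71e-06 for GAD2 to 3.79e-23 for LHX6, in a table where 76.7% of the 21147 genes tested also passed. Each region was then set against the mean log level of the other 9, and a call needed both an adjusted p under 0.05 and a log2 fold change of 1 or more in size. That mean includes the regions where a gene is lowest, so a region called higher need not exceed the remaining regions. The spread of each gene was estimated in common over all regions, so an SE or p does not measure the spread within a given region. Of the 8 genes, 1 was called in prefrontal cortex (beside 2.46% of all genes tested) and 1 in posterior parietal cortex (2.66%). The number was 2 in frontal cortex (2.77%) and in entorhinal cortex (2.24%), and 3 in motor cortex (1.64%) and in visual cortex (2.12%), all of them higher. In hippocampus 4 were called, 3 higher and 1 lower (4.62%). Where the share of all genes was larger, 6 of the 8 were called in basal ganglia, 3 in each direction (10.3%), 6 in pons, 2 higher and 4 lower (18.7%), and 5 in cerebellum, 2 higher and 3 lower (28.8%). The median log2 fold change of the 8 genes was 0.09 in basal ganglia, -0.02 in cerebellum and -1.78 in pons, beside -0.01, -0.04 and 0.03 over all genes. A fit with the sheep as a block called 3 of the 8 in prefrontal cortex.

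**Figure D1:**
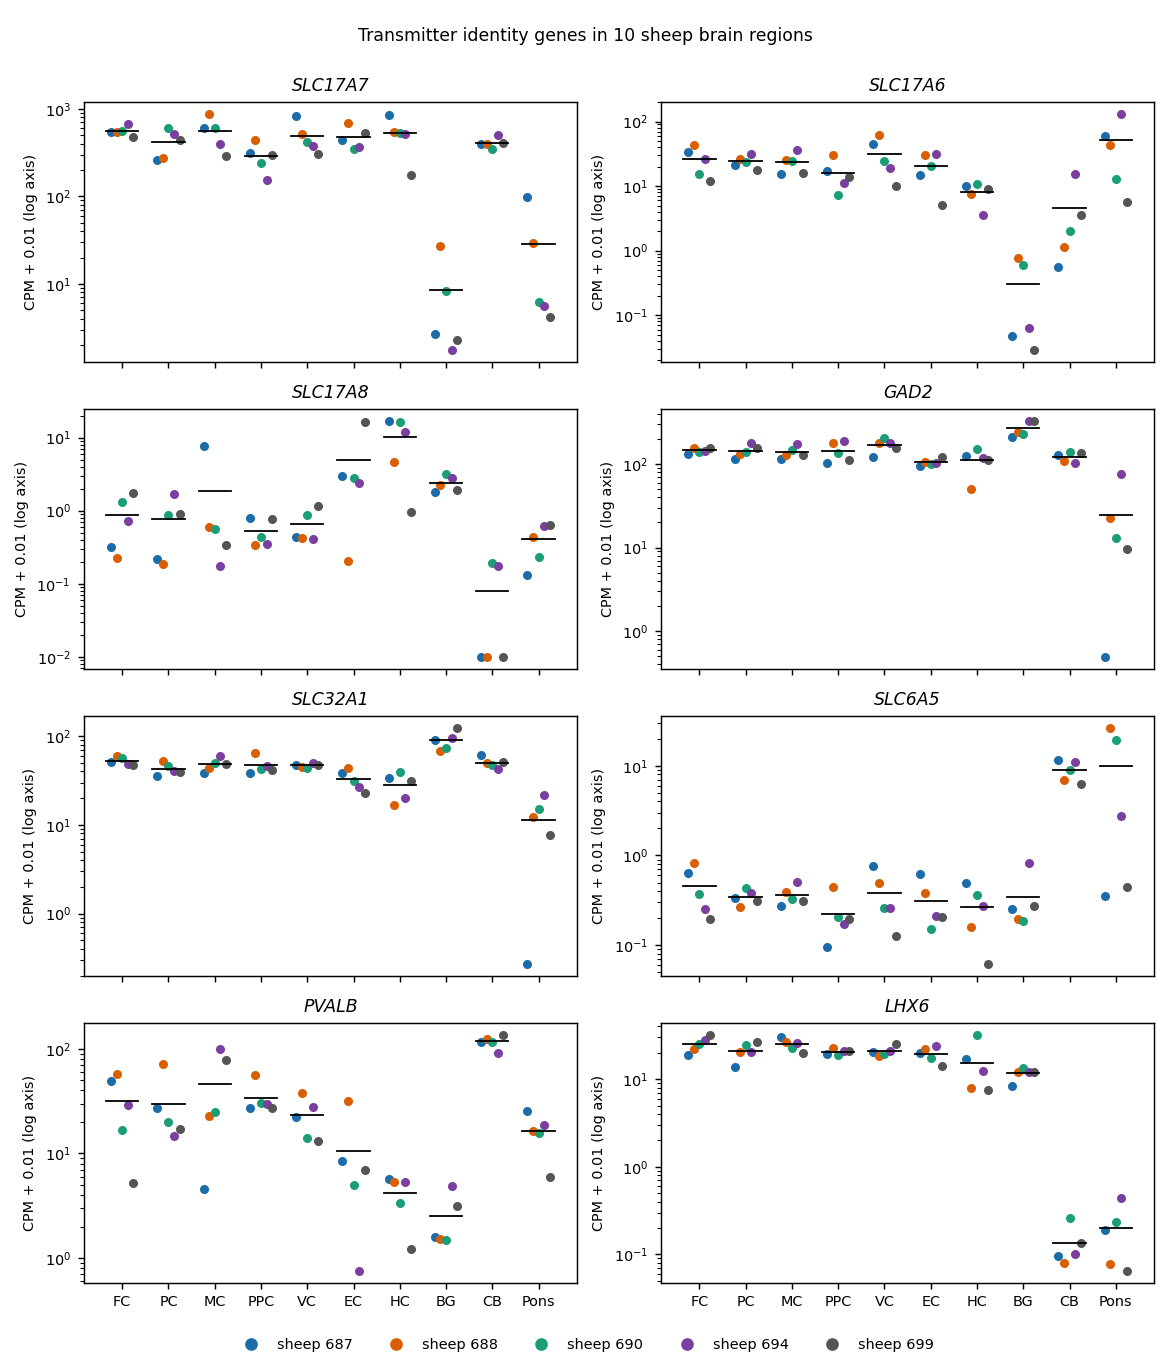
CPM (log axis, 0.01 added) of the 8 genes in the 10 sheep regions; each dot is 1 library, coloured by sheep, and the line is the mean of 5. LHX6 is lower in every cerebellum and pons library than in the other 8 regions, SLC6A5 is higher in all cerebellum and 3 of 5 pons libraries, and SLC17A7 is low in basal ganglia and pons.

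**Figure D2:**
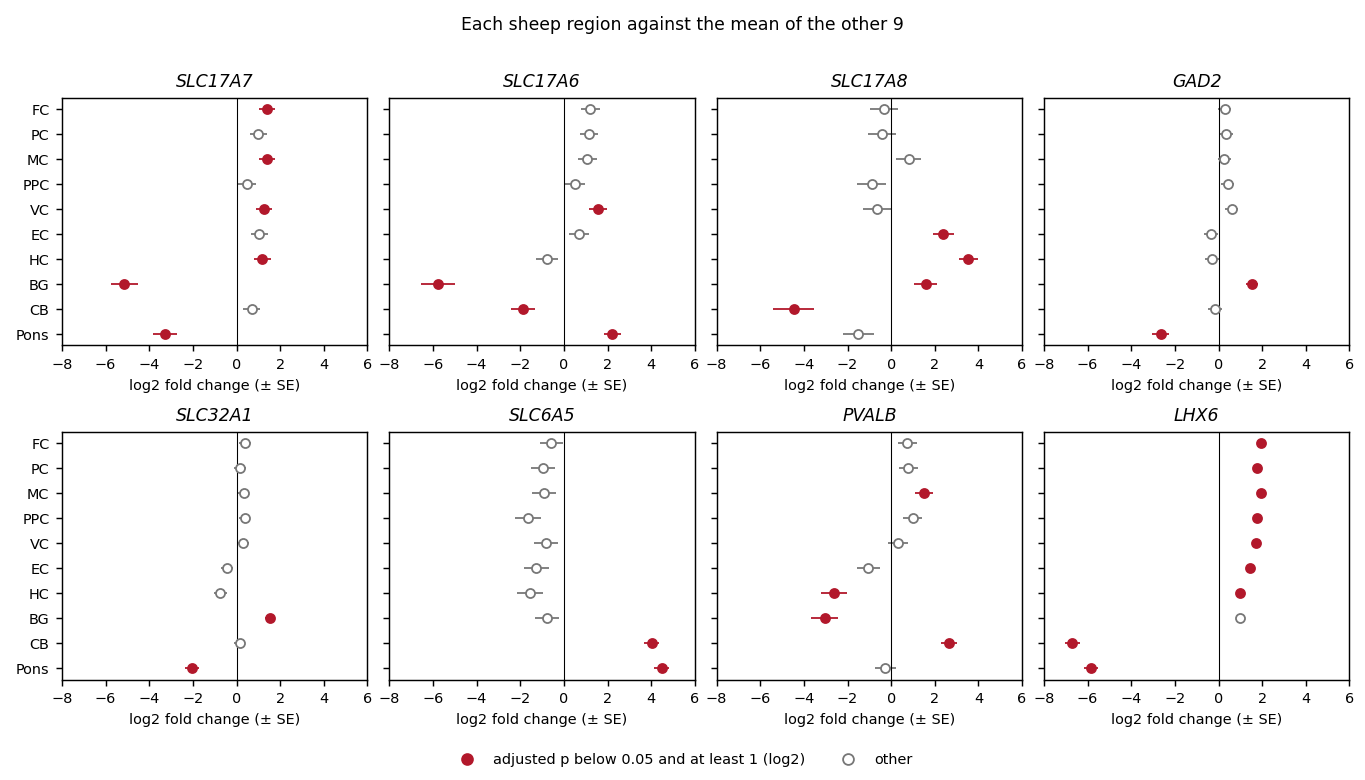
log2 fold change of each gene in each sheep region against the mean log level of the other 9, with bars of 1 SE; filled red points were called. The largest negative value is LHX6 in cerebellum at -6.71, and the largest positive value is SLC6A5 in pons at 4.49.

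SLC17A7, the vesicular glutamate transporter of cortical and cerebellar granule neurons, was low in 2 dissections and high in the other 8. Its CPM in basal ganglia was 2.68, 27.3, 8.20, 1.75 and 2.27 in sheep 687, 688, 690, 694 and 699, and in pons it was 97.1, 29.1, 6.23, 5.54 and 4.21 in the same order. In frontal cortex the 5 sheep had 547, 538, 560, 671 and 481 CPM. No library of basal ganglia or pons reached the lowest value of the other 8 regions, which was 152 CPM in the posterior parietal cortex of sheep 694. The log2 fold change against the other 9 regions was -5.14 ± 0.63 (SE; adjusted p = 1.17e-08) in basal ganglia and -3.27 ± 0.56 (adjusted p = 4.26e-06) in pons. These were -6.20 without sheep 688 and -4.61 without sheep 687, whose libraries were the high ones of the 2 regions. All 16 tests of basal ganglia or pons against 1 of the other 8 regions were called, and pons exceeded basal ganglia by a log2 fold change of 1.68 ± 0.59 (adjusted p = 0.0191). None of the other 28 pairs was called. The calls of a higher level that follow are against a mean that includes basal ganglia and pons. SLC17A7 was also called higher in frontal cortex (1.38 ± 0.37, adjusted p = 0.0153), motor cortex (1.38 ± 0.37, adjusted p = 0.0239), hippocampus (1.18 ± 0.38, adjusted p = 0.0350) and visual cortex (1.25 ± 0.38, adjusted p = 0.0367). The motor cortex value was 1.43 ± 0.42 (adjusted p = 0.0278) without the 3 libraries farthest from their label. These 4 calls were fragile: leaving out sheep 690 ended each of them (adjusted p = 0.100, 0.146, 0.138 and 0.133 in that order), and so did sheep 694 in each (at most 0.0987), sheep 688 in motor cortex (0.0741), sheep 687 in hippocampus (0.0719) and visual cortex, and sheep 699 in visual cortex (0.0567). With the sheep as a block, SLC17A7 was also called in prefrontal cortex (1.21, adjusted p = 0.0264), where it was 1.00 ± 0.39 (adjusted p = 0.119) without it, and leaving out sheep 687 gave 1.31 (adjusted p = 0.0364). Cerebellum, where granule cells hold this transporter, had 395, 399, 351, 505 and 404 CPM, and its difference from the other 9 regions was not called (0.69 ± 0.40, adjusted p = 0.126). By mean CPM ± SD (n = 5) the regions ran frontal 559 ± 69.4, motor 557 ± 228, hippocampus 523 ± 242, visual 489.5 ± 207, entorhinal 476 ± 136, prefrontal 419 ± 149.6, cerebellum 411 ± 56.6, posterior parietal 288 ± 106, pons 28.5 ± 39.8 and basal ganglia 8.43 ± 10.8. Of its 9 neighbouring steps, those called were from posterior parietal to pons and from pons to basal ganglia.

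SLC17A6, the vesicular glutamate transporter known for thalamus and brainstem, had its highest mean in pons and its lowest in basal ganglia. The pons libraries held 60.5, 42.6, 13.0, 132 and 5.71 CPM, and the basal ganglia libraries 0.0375, 0.748, 0.590, 0.0540 and 0.0189 CPM. The means were 50.8 ± 50.7 CPM (SD, n = 5) in pons and 0.290 ± 0.351 CPM (SD, n = 5) in basal ganglia. Pons had the largest SD in CPM, although cerebellum and basal ganglia varied more for their means (coefficients of variation of 1.37 and 1.21, beside 0.997 in pons), and its lowest library lay below all 5 visual cortex libraries (44.8, 60.8, 24.7, 19.0 and 10.0 CPM). Against the other 9 regions SLC17A6 was higher in pons (2.22 ± 0.39, adjusted p = 7.02e-06) and visual cortex (1.58 ± 0.41, adjusted p = 0.0131), and lower in basal ganglia (-5.78 ± 0.78, adjusted p = 8.15e-08) and cerebellum (-1.88 ± 0.56, adjusted p = 0.00379). The visual cortex call ended without sheep 687, 688 or 690 (adjusted p = 0.159, 0.130 and 0.0594). With the sheep as a block SLC17A6 was also called higher in prefrontal (1.21, adjusted p = 0.0443) and frontal cortex (1.17, adjusted p = 0.0474), and the frontal call was also made without sheep 694 (1.40, adjusted p = 0.0451). Pons and visual cortex did not differ by the test (0.58 ± 0.63, adjusted p = 0.492). Basal ganglia differed from each of the other 9 regions. In cerebellum the 5 libraries held 0.543, 1.11, 1.97, 15.5 and 3.55 CPM, and the high value belonged to sheep 694, which also had the highest pons value. Without sheep 694 the cerebellar log2 fold change was -3.10 ± 0.61 (adjusted p = 7.40e-05), and without sheep 688 that of basal ganglia was -6.40. The order of mean CPM ± SD (n = 5) was pons 50.8 ± 50.7, visual 31.9 ± 20.6, frontal 26.4 ± 13.2, prefrontal 24.0 ± 5.30, motor 23.5 ± 8.66, entorhinal 20.3 ± 10.9, posterior parietal 15.8 ± 8.57, hippocampus 8.20 ± 2.86, cerebellum 4.53 ± 6.23 and basal ganglia 0.290 ± 0.351. The 1 called step between neighbours was from cerebellum to basal ganglia.

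SLC17A8, the third vesicular glutamate transporter gene, had its highest mean in hippocampus. Its hippocampal CPM was 17.0, 4.65, 16.5, 12.0 and 0.950, and its entorhinal CPM was 2.94, 0.195, 2.77, 2.38 and 16.2. In sheep 687, 688, 690 and 694 hippocampus was above entorhinal cortex, and in sheep 699 the order was the reverse, with the entorhinal library at 16.2 and the hippocampal library at 0.950 CPM. Both libraries of sheep 699 are among those that went against their label. Against the other 9 regions the log2 fold change of SLC17A8 was 3.54 ± 0.45 (adjusted p = 3.96e-07) in hippocampus and 2.39 ± 0.49 (adjusted p = 0.00199) in entorhinal cortex. Without the 3 libraries farthest from their label the values were 3.86 ± 0.34 (adjusted p = 9.67e-11) and 1.73 ± 0.48 (adjusted p = 0.0229), and without sheep 699 the entorhinal value was 1.16 (adjusted p = 0.361). The motor cortex library of sheep 687 held 7.59 CPM of SLC17A8 beside 0.593, 0.554, 0.167 and 0.325 CPM in the other four, and its profile was the one closest to hippocampus. The motor cortex difference of SLC17A8 was 0.80 ± 0.56 (adjusted p = 0.422) with all libraries and -1.09 ± 0.58 (adjusted p = 0.240) without those 3.

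Outside hippocampus and entorhinal cortex, SLC17A8 had a narrow range in basal ganglia, at 1.76, 2.23, 3.15, 2.77 and 1.91 CPM. It was called higher there (1.57 ± 0.52, adjusted p = 0.0205), and leaving out sheep 688, 690 or 694 each ended the call (adjusted p = 0.0590, 0.0749 and 0.0658). Cerebellum had no count of SLC17A8 in 3 of 5 libraries, and 0.185 and 0.165 CPM in sheep 690 and 694. It was called lower than the other 9 regions (-4.47 ± 0.93, adjusted p = 6.07e-05) and lower than each of them alone. Without sheep 690 the value was -5.24. From high to low, mean CPM ± SD (n = 5) was hippocampus 10.2 ± 7.17, entorhinal 4.90 ± 6.42, basal ganglia 2.36 ± 0.584, motor 1.85 ± 3.22, frontal 0.850 ± 0.641, prefrontal 0.757 ± 0.607, visual 0.650 ± 0.339, posterior parietal 0.525 ± 0.223, pons 0.401 ± 0.226 and cerebellum 0.0701 ± 0.0963. The 1 called step between neighbours was from pons to cerebellum.

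GAD2, the glutamate decarboxylase concentrated at nerve endings, was highest in basal ganglia. Its 5 libraries held 212, 241, 230, 331 and 324 CPM, and every one of them lay above all 45 libraries of the other regions, whose highest value was 207 CPM. SLC32A1, which fills vesicles with GABA or glycine, had the same pattern: 90.6, 68.0, 73.0, 94.6 and 124 CPM in basal ganglia, and at most 64.5 CPM in any other brain library. These were the 2 cases, out of 80 combinations of a gene and a region, in which a region's 5 libraries did not overlap with the other 45. Over all genes tested 1.76% of such combinations did not overlap, so the 2 of 80 are near that share. Both cases were of basal ganglia, where 2 of the 8 genes had all libraries above the rest, beside 0.955% of all genes tested. That region and direction were picked because both cases fell there, so these shares are a description. The log2 fold changes against the other 9 regions were 1.53 ± 0.27 (adjusted p = 1.76e-05) for GAD2 and 1.55 ± 0.24 (adjusted p = 1.28e-06) for SLC32A1.

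Both genes were lowest on average in pons. GAD2 there was 0.482, 22.5, 12.9, 77.1 and 9.50 CPM, and SLC32A1 was 0.261, 12.3, 15.2, 21.5 and 7.73 CPM. The pons of sheep 687 was the lowest for both and that of sheep 694 the highest. The log2 fold change against the other 9 regions was -2.66 ± 0.39 (adjusted p = 3.02e-07) for GAD2 and -2.05 ± 0.33 (adjusted p = 1.35e-06) for SLC32A1, and that of GAD2 was -3.56 without sheep 694. Pons was below each other region in all 9 pair tests of both genes. For SLC32A1, basal ganglia was above each other region in all 9 pair tests, and for GAD2 in 4 of 9, namely cerebellum, entorhinal cortex, hippocampus and pons. The remaining regions formed a plateau: GAD2 had group means of 105 to 168 CPM and SLC32A1 of 28.2 to 52.6 CPM in the 8 of them, and no pair among those 8 was called for either gene. Over the 50 sheep brain libraries the 2 genes had a correlation of 0.94 on the log2(CPM + 1) scale, given as a description, since libraries of 1 animal and region are shared by both genes. The full order of GAD2, as mean CPM ± SD (n = 5), was basal ganglia 268 ± 55.6, visual 168 ± 31.7, frontal 146 ± 10.3, prefrontal 144 ± 23.7, posterior parietal 143 ± 37.3, motor 139 ± 22.6, cerebellum 123 ± 16.4, hippocampus 111 ± 37.3, entorhinal 105 ± 9.13 and pons 24.5 ± 30.4. The 1 called step between neighbours was from entorhinal to pons. That of SLC32A1 was basal ganglia 90.1 ± 22.3, frontal 52.6 ± 5.37, cerebellum 50.2 ± 7.08, motor 48.2 ± 7.97, visual 46.8 ± 2.34, posterior parietal 46.7 ± 10.4, prefrontal 42.7 ± 6.32, entorhinal 32.6 ± 8.61, hippocampus 28.2 ± 9.58 and pons 11.4 ± 7.99. The called steps were from basal ganglia to frontal and from hippocampus to pons.

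The promoter windows of the rat copies of these genes are shown because GAD2 and SLC32A1 varied together over the sheep libraries, and that of Slc17a6 because SLC17A6 was lowest where they were highest. Each is the 250 bases before the gene's start in the GRCr8 assembly, from RefSeq, on the plus strand, 5′ to 3′. The capitals mark the letters of a GC box (GGGCGG, or CCGCCC on the other strand), which occurs in 30.5% of 33469 rat promoter windows of this length.
Gad2, chr17:89671468-89671717: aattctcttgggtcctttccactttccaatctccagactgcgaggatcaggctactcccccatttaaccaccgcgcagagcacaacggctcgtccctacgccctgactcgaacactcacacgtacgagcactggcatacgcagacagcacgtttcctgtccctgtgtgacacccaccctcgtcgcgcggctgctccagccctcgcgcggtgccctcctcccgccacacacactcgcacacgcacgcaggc
Slc32a1, chr3:167686995-167687244: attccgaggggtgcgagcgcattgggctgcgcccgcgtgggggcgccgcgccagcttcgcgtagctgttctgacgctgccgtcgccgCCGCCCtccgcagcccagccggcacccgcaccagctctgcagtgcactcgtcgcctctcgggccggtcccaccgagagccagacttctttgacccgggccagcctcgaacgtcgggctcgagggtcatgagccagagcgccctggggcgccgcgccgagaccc
Slc17a6, chr1:110348197-110348446: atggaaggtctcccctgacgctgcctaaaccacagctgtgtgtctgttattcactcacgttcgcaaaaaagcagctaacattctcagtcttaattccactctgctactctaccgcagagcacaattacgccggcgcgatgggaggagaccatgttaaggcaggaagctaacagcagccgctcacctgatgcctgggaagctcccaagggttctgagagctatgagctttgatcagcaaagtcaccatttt
The windows lie directly before protein-coding genes that span 89671718 to 89734246 on chromosome 17, 167687245 to 167691714 on chromosome 3 and 110348447 to 110388499 on chromosome 1. Their GC content was 62.0% for Gad2, 73.6% for Slc32a1 and 50.8% for Slc17a6, and the median of all windows was 51.2%. Of the 9 genes, 5 had a GC box in the window (Slc17a7, Gad1, Slc32a1, Pvalb and Lhx6). Apart from the windows shown, none lies directly before its annotated gene. Those of Slc17a7 and Gad1 run past the gene's start, and those of Slc17a8, Slc6a5, Pvalb and Lhx6 lie inside the gene's span. A TATA box (TATAAA, or TTTATA on the other strand), which 12.9% of all windows hold, was found in Gad1 alone. No sheep sequence was used here, and the levels above are from sheep.

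SLC6A5, the plasma membrane glycine transporter of glycine-releasing neurons, was seen in cerebellum and pons. The cerebellar libraries held 11.7, 6.89, 9.01, 11.1 and 6.19 CPM, a narrow range. The pons libraries held 0.341, 26.6, 19.4, 2.74 and 0.438 CPM, so that sheep 688 and 690 were above every cerebellar library and sheep 687 and 699 were within the range of the other 8 regions, where the highest library had 0.821 CPM. The log2 fold change against the other 9 regions was 4.02 ± 0.36 (adjusted p = 4.61e-13) in cerebellum and 4.49 ± 0.35 (adjusted p = 6.01e-14) in pons, where it was 3.71 without sheep 688. The SE and p rest on a spread shared over all regions and do not measure the spread within pons. The coefficient of variation of SLC6A5 was 1.24 in pons and 0.272 in cerebellum. All 16 pairs between these 2 regions and the other 8 were called, and no other pair of regions was. Pons and cerebellum differed by 0.42 ± 0.63 (adjusted p = 0.589). Ordered by mean CPM ± SD (n = 5), the regions were pons 9.88 ± 12.2, cerebellum 8.97 ± 2.44, frontal 0.449 ± 0.268, visual 0.372 ± 0.251, motor 0.354 ± 0.0924, basal ganglia 0.337 ± 0.267, prefrontal 0.336 ± 0.0657, entorhinal 0.305 ± 0.193, hippocampus 0.260 ± 0.169 and posterior parietal 0.212 ± 0.129. The 1 called step between neighbours was from cerebellum to frontal.

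PVALB, the calcium buffer of fast-spiking interneurons and Purkinje cells, was highest in cerebellum at 117, 125, 117, 92.0 and 136 CPM. Basal ganglia had 1.58, 1.53, 1.49, 4.84 and 3.14 CPM, and hippocampus 5.68, 5.35, 3.36, 5.35 and 1.23 CPM. The cerebellar libraries were above all others but the motor cortex library of sheep 694, which held 100.04 CPM. Against the other 9 regions PVALB was higher in cerebellum (2.65 ± 0.38, adjusted p = 7.14e-08) and lower in basal ganglia (-3.05 ± 0.62, adjusted p = 0.000152) and hippocampus (-2.60 ± 0.60, adjusted p = 0.00272). Cerebellum exceeded 8 of the other 9 regions in the pair tests. The exception was motor cortex (1.05 ± 0.64, adjusted p = 0.178). Mean CPM ± SD (n = 5) of PVALB ran cerebellum 117 ± 16.3, motor 46.1 ± 40.9, posterior parietal 33.9 ± 12.2, frontal 31.6 ± 21.8, prefrontal 30.0 ± 23.4, visual 23.1 ± 10.3, pons 16.5 ± 7.01, entorhinal 10.6 ± 12.2, hippocampus 4.19 ± 1.90 and basal ganglia 2.52 ± 1.48. No step between neighbours was called.

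The motor cortex libraries spread widely for PVALB, at 4.54, 22.9, 24.6, 100.04 and 78.6 CPM, and the lowest was that of sheep 687, whose profile went against its label. PVALB was called higher in motor cortex than in the other 9 regions at 1.49 ± 0.41 (adjusted p = 0.0308), and at 1.92 ± 0.37 (adjusted p = 0.000640) without the 3 libraries farthest from their label. The first of these calls ended without sheep 690, 694 or 699 (adjusted p = 0.109, 0.316 and 0.238). Entorhinal cortex had 8.38, 31.7, 5.03, 0.745 and 6.96 CPM, and the high value came from the library of sheep 688 whose profile was closest to motor cortex. The entorhinal difference of PVALB was -1.05 ± 0.52 (adjusted p = 0.322) with all libraries and -2.29 ± 0.63 (adjusted p = 0.0208) without those 3, and -1.96 (adjusted p = 0.0379) without sheep 688. Sheep 688 also had the highest PVALB of the prefrontal (71.0 CPM) and posterior parietal (55.6 CPM) libraries.

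LHX6, the transcription factor of interneurons from the medial ganglionic eminence, split the regions most sharply. Cerebellum held 0.0707 to 0.253 CPM and pons 0.181, 0.0681, 0.224, 0.429 and 0.0547 CPM, with ranges that overlapped. Basal ganglia had 8.41, 12.2, 13.3, 12.1 and 12.2 CPM, hippocampus 16.9, 7.94, 32.0, 12.3 and 7.56 CPM, and the 5 neocortical regions between 13.7 and 32.2 CPM. All forebrain libraries were thus above all libraries of cerebellum and pons. The log2 fold change against the other 9 regions was -6.71 ± 0.34 (adjusted p = 5.02e-21) in cerebellum and -5.86 ± 0.32 (adjusted p = 1.32e-18) in pons, and it was called higher in the neocortical regions at 1.73 to 1.97, in entorhinal cortex at 1.44 and in hippocampus at 1.01. Without the 3 libraries farthest from their label LHX6 was at 1.94 ± 0.18 (adjusted p = 1.01e-09) in motor and 1.48 ± 0.21 (adjusted p = 1.07e-05) in entorhinal cortex. The hippocampal value fell under the size threshold with the sheep as a block (0.96) and without sheep 687 (0.92) or 690 (0.64). All 16 pairs across the split were called and none within either side. The regions called higher were set against a mean that includes cerebellum and pons, and no forebrain region was called above another. LHX6 was 0.96 ± 0.18 (adjusted p = 3.82e-05) in basal ganglia, under the threshold for size, which it passed without sheep 687, 690 or 694 (1.02, 1.02 and 1.00). In order of mean CPM ± SD (n = 5), LHX6 had frontal 25.3 ± 5.20, motor 25.1 ± 3.84, prefrontal 21.2 ± 5.00, visual 20.9 ± 2.68, posterior parietal 20.5 ± 1.48, entorhinal 19.6 ± 3.90, hippocampus 15.3 ± 10.1, basal ganglia 11.6 ± 1.87 and pons 0.191 ± 0.151, with cerebellum lowest. The 1 called step between neighbours was from basal ganglia to pons.

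Among the 5 neocortical regions none of the 8 genes was found to differ. None passed the test for any difference, beside 4 of all genes tested (0.0189%), and the smallest unadjusted p was 0.334, for SLC17A8. None of 80 pair tests was called or reached an unadjusted p of 0.05, and DESeq2 also called none of the 8. The widest neocortical difference of means was that of SLC17A8 in motor against posterior parietal cortex, a log2 fold change of 1.53 ± 0.83 (adjusted p = 0.303), and it includes the motor cortex library of sheep 687 that went against its label. Over all 45 pairs of regions, 134 of 360 tests of these genes were called, beside 11.3% of the tests of all genes. PVALB had the most called pairs (21) and GAD2 the fewest (12). When the regions were ordered by mean for each gene, 9 of 72 steps between neighbours were called, and the ranges of 66 of them overlapped.

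The balance between genes was read within each library as a log2 ratio of counts, in which the depth of the library cancels and differences between regions do not depend on gene length. The ratio of SLC17A6 to SLC17A7 was 1.19 ± 2.00 (SD, n = 5) in pons, and its means lay between -7.46 in cerebellum and -4.07 in prefrontal cortex elsewhere. The lowest pons library, at -0.68, was above every library outside pons, the highest of which was -3.09. The ratio of SLC6A5 to SLC32A1 was -1.05 ± 2.33 in pons and -2.52 ± 0.43 in cerebellum, with means of -8.24 to -6.86 in the other 8 regions. The ratio of PVALB to SLC32A1 ranged from -5.30 ± 0.60 in basal ganglia and -2.86 ± 1.24 in hippocampus to 1.22 ± 0.20 in cerebellum and 1.29 ± 2.96 in pons, where the library of sheep 687 had 6.55 and the median was 0.03. The ratio of LHX6 to SLC32A1 was -8.68 ± 0.75 in cerebellum, -5.28 ± 2.75 in pons, -2.94 ± 0.46 in basal ganglia and between -1.17 and -0.72 in the cortical and hippocampal means. Cerebellum and pons were thus high on average for the PVALB ratio and low for the LHX6 ratio, with a wide spread in pons, and basal ganglia was low for both relative to neocortex. In pons the median LHX6 ratio was -6.03, and the highest library, that of sheep 687 at -0.51, lay above the cortical and hippocampal means. That library held only 0.261 CPM of SLC32A1, beside 0.341 CPM of SLC6A5 and 0.181 CPM of LHX6. Its ratios to SLC32A1 rest on few counts and are not read as a balance of transmitters. No ratio was tested.

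**Figure D3:**
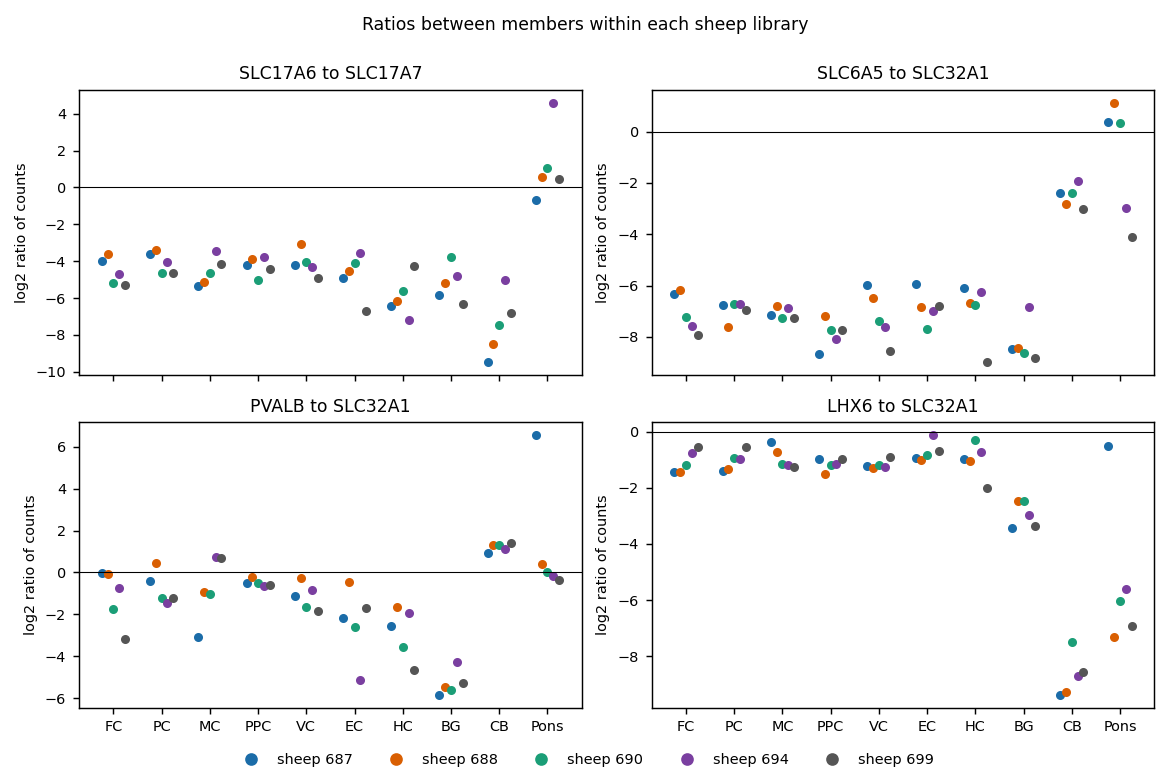
log2 ratio of counts of 2 genes in each sheep brain library (dots, coloured by sheep) for the 10 regions. The horizontal line marks equal counts of the 2 genes. The SLC17A6 to SLC17A7 ratio is highest in pons (mean 1.19). The PVALB to SLC32A1 and LHX6 to SLC32A1 ratios part in cerebellum (means 1.22 and -8.68) and, with a wide spread, in pons (means 1.29 and -5.28, medians 0.03 and -6.03).

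The 5 pons libraries differed widely from each other, in several of these genes at once. Sheep 687 had the highest SLC17A7 (97.1 CPM) with the lowest GAD2 (0.482 CPM), SLC32A1 (0.261 CPM) and SLC6A5 (0.341 CPM). Sheep 688 and 690 had the high SLC6A5 values (26.6 and 19.4 CPM). Sheep 694 had the highest SLC17A6 (132 CPM), GAD2 (77.1 CPM) and SLC32A1 (21.5 CPM) with little SLC6A5 (2.74 CPM), and sheep 699 was lowest for SLC17A6 (5.71 CPM), SLC17A7 (4.21 CPM) and PVALB (6.00 CPM). The hindbrain list summed to 13.8, 30.3, 52.6, 22.3 and 2.12 CPM in sheep 687, 688, 690, 694 and 699. The mean log2(CPM + 1) of 7 general neuron genes was 7.91, 7.16, 7.62, 7.62 and 5.70 in the same order, and that of 7 oligodendrocyte genes was 10.98, 10.72, 10.00, 9.68 and 11.74. Summed oligodendrocyte genes were 21689 to 94647 CPM in pons and at most 29330 CPM in other regions, and no gene of the list was at 0 in any region. The part of these markers in the pons results was not tested.

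**Figure D4:**
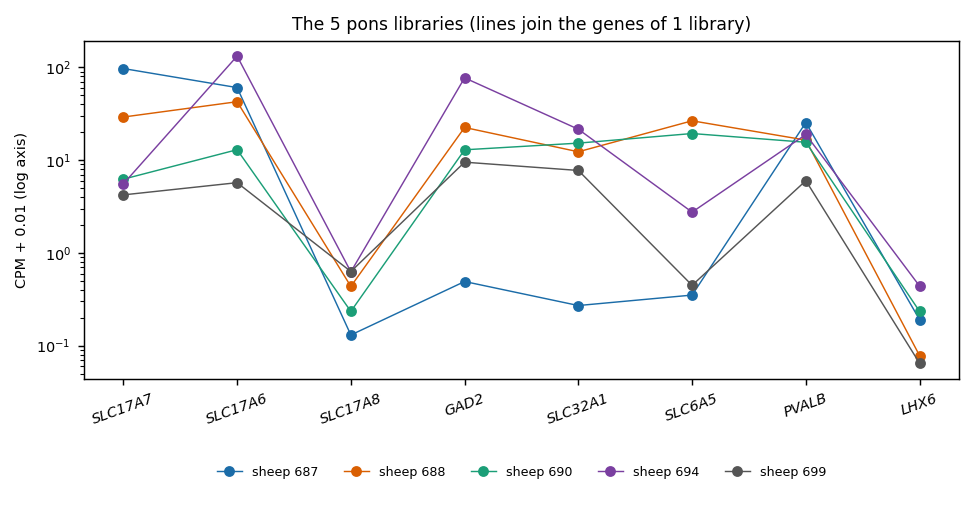
CPM (log axis, 0.01 added) of the 8 genes in the 5 sheep pons libraries; each line joins the values of 1 sheep. Sheep 687 is lowest for GAD2 and SLC32A1 and highest for SLC17A7, and sheep 688 and 690 are highest for SLC6A5.

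Other genes of the same pathways were read from 4 lists. The counts below stand beside 18.7% of all genes called in pons, 28.8% in cerebellum and 10.3% in basal ganglia, in either direction. Of 12 transporters and enzymes of glutamate and GABA, 6 were lower in pons and none higher, among them the astrocyte glutamate transporter gene SLC1A2 (-1.93) and the Purkinje cell transporter gene SLC1A6 (-1.69). In cerebellum 3 were higher (SLC1A6 at 2.54, the glutamine transporter gene SLC38A1 at 1.38 and the glutaminase gene GLS2 at 1.15) and 4 lower (SLC1A2 at -4.08 and the GABA transporter gene SLC6A11 at -1.85 among them). In basal ganglia 2 were lower, GLS2 (-1.41) among them. The median log2 fold change of this list was -0.72 in pons, -0.46 in cerebellum and -0.07 in basal ganglia. Of 6 genes of glycine transmission, the glycine receptor subunit gene GLRA1 (4.70) and the glial glycine transporter gene SLC6A9 (1.58) were higher in pons. The list was not higher in cerebellum, where SLC6A5 was: the receptor subunit genes GLRA2 (-3.43) and GLRA3 (-2.50) were lower and none was called higher. In basal ganglia GLRA3 (1.93) and GLRA2 (1.43) were higher and GLRA1 (-1.69) lower.

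Of 20 interneuron and inhibitory neuron genes, 15 were lower and 3 higher in cerebellum, 11 lower and 1 higher in pons, and 8 higher and 5 lower in basal ganglia. Among the largest decreases were those of the homeobox genes DLX6 (-10.05) and DLX1 (-8.58) in cerebellum, and DLX1 (-9.25) and DLX2 (-7.73) in pons. The calcium-binding gene CALB1 (7.31) and RELN (2.50) were higher in cerebellum, and CALB2 (2.47) in pons. In basal ganglia CALB1 (5.39), DLX6 (4.69) and NKX2-1 (4.52) were higher, and the neuropeptide genes VIP (-3.64) and CCK (-3.10) lower. Each neocortical region had 9 to 11 of the 20 higher and 1 lower, beside 1.64% to 2.77% of all genes called. Of 8 glutamatergic neuron genes, all 8 were lower in pons, led by TBR1 (-9.85), and 6 lower in basal ganglia, led by NEUROD6 (-5.74), where BCL11B, a gene also used by striatal neurons, was higher (4.13). In cerebellum NEUROD2 (2.22) and NRN1 (1.35) were higher and 5 lower. None of the genes of the 4 lists was called in the test among neocortical regions.

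For each of the 8 genes, the genes with the most similar levels over the 50 sheep brain libraries were ranked by Pearson's r of log2(CPM + 1), among 13276 genes with a mean of at least 1 CPM. The nearest to SLC17A7 were NEUROD2 (0.941) and NRN1 (0.926), and among the nearest to LHX6 was DLX1 (0.960). SYNPR, which encodes a synaptic vesicle protein, was nearest to both GAD2 (0.882) and SLC32A1 (0.858). PAX2 (0.912) was nearest to SLC6A5, the potassium channel subunit gene KCNAB3 (0.914) to PVALB, CAMK2G (0.856) to SLC17A6 and MYCL (0.866) to SLC17A8. Among the 8 themselves, LHX6 and SLC6A5 had -0.80, and PVALB and SLC17A8 had -0.69. The 50 points share 5 animals and 10 regions, so these values are descriptions.

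In rat whole brain all 9 genes were measured, and brains 1 and 4 stood apart. In the other 27 brains SLC17A7 ran from 420 through a median of 843 to 1150 CPM, SLC17A6 from 27.8 through 64.5 to 134 CPM, and SLC17A8 from 1.73 through 4.06 to 7.58 CPM. GAD1 ran from 119 through 273 to 331 CPM, SLC32A1 from 60.8 through 126 to 166 CPM, and GAD2 from 9.97 through 33.2 to 85.8 CPM. SLC6A5 ran from 4.39 through 16.9 to 34.7 CPM, PVALB from 83.5 through 182 to 424 CPM, and LHX6 from 4.58 through 9.50 to 13.7 CPM. All 9 were lower in brains 1 and 4, at 14.6 and 21.0 CPM for GAD1 and 43.2 and 67.1 CPM for SLC17A7. These are the libraries in which the chosen entries for ribosomal RNA or with placeholder names took most of the counts. The genes spread unequally over the 27 brains: the coefficient of variation was 0.502 for GAD2, 0.501 for SLC6A5 and 0.404 for PVALB, and 0.189 for GAD1 and 0.196 for SLC17A7. GAD1 and SLC32A1 had a correlation of 0.90 over the 27 brains, SLC17A7 and GAD1 of 0.79, SLC17A7 and SLC32A1 of 0.71 and SLC17A6 and SLC6A5 of 0.69, while GAD2 and PVALB had -0.36. Those entries still took 2.39% to 54.0% of the counts of the 27 brains, and this share enters the CPM of every gene, so the correlations are descriptions and its part in them was not tested.

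Female and male rat brains were not told apart by these genes. None of the 9 was called, beside 12 of all genes (0.0583%), and DESeq2 called none of them either. SLC17A6 was the only one of the 9 with an unadjusted p under 0.05 (female minus male log2 fold change 0.43 ± 0.15, p = 0.00707, adjusted p = 0.287). Its means without brains 1 and 4 were 75.4 ± 28.1 CPM (SD, n = 13) in females and 63.9 ± 21.4 CPM (SD, n = 14) in males, with ranges that overlapped. The median log2 fold change of the 9 genes was 0.07.

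In the rat ovary 4 of the 9 genes were nearly silent (SLC17A6, SLC17A7, SLC17A8 and SLC32A1) and 5 were measured at low levels. SLC17A8 had no count in any of the 14 ovaries, which makes the female brain mean at least 982-fold higher when set against 3 counts over the group. SLC17A6 had 11 counts in all ovaries together, SLC32A1 10 and SLC17A7 41. GAD1 was measured in every ovary, from 0.135 through a median of 9.18 to 20.2 CPM, GAD2 from 0.0193 through 3.42 to 11.6 CPM, SLC6A5 from 0.381 through 1.94 to 6.40 CPM, and PVALB from 0.0771 through 1.16 to 6.23 CPM. Of the 9 genes, 8 were called lower than in female brain, beside 56.9% of all genes called in either direction. The log2 fold changes of those with many ovary counts were -4.92 ± 0.36 for GAD1, -3.25 ± 0.39 for GAD2, -2.67 ± 0.36 for SLC6A5 and -6.75 ± 0.45 for PVALB. In 1 of the 14 rats with the same number in both groups GAD2 was higher in ovary, namely rat 1, whose brain library held 0.772 CPM. LHX6 ran from 3.18 through 4.47 to 9.87 CPM in ovary, and its fold change of -0.98 ± 0.16 (adjusted p = 9.64e-07) was just short of the size threshold, which 4 of 6 alternatives passed, such as DESeq2 (-1.01) and the fit without brains 1 and 4 (-1.02).

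Rat sperm libraries resembled each other less. SLC17A6, GAD2, SLC32A1, SLC17A8 and PVALB had a median of 0 CPM over the 15 libraries, and all 13 counts of GAD2 came from library 14. Of the 9 genes, 8 were called lower than in male brain, beside 59.1% of all genes called in either direction, and 7 of these 8 had no overlap with the brain libraries, beside 8.66% of all genes whose sperm libraries all lay below all male brain libraries. GAD1 was counted in all 15 libraries, from 0.479 through a median of 0.992 to 10.0 CPM, with a log2 fold change of -6.46 ± 0.45 (adjusted p = 2.45e-14). SLC6A5 ran from 0 to 8.43 CPM and had no count in 6 libraries (-3.33 ± 0.90, adjusted p = 0.00134). The highest GAD1 and SLC6A5 values, 10.0 and 8.43 CPM, both came from library 14, and those of library 7 came next, at 7.99 and 7.12 CPM. Without libraries 7 and 14 the log2 fold change was -7.28 for GAD1 and -5.57 ± 0.76 (adjusted p = 1.03e-07) for SLC6A5. Libraries 7 and 14 also held 20632 and 21817 summed CPM of 7 spermatid and sperm genes, which ran from 186 CPM upward over the 15 libraries, and the part of those genes in these values was not tested.

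LHX6 was the exception in rat sperm. It was counted in every library, from 4.02 through a median of 13.8 to 40.0 CPM, beside a male brain mean of 9.85 CPM, and it was higher in sperm at a log2 fold change of 1.02 ± 0.26 (adjusted p = 0.000723). Of the 15 rats with the same number in both groups, 11 had the higher value in sperm, and the ranges overlapped. The highest libraries were 14 (40.0 CPM), 16 (33.8 CPM), 7 (26.0 CPM) and 13 (25.3 CPM). Without libraries 7 and 14 the fold change was 0.77, without brains 1 and 4 or without a low-count filter it was 0.99, and with DESeq2 or RLE factors it was 0.85. In all, 6 of 8 alternatives left it under the size threshold, with adjusted p values of at most 0.0118. The rat gene Lhx6, on chromosome 3 from 39829846 to 39853681, overlaps another annotated gene, LOC134486080, and the strand setting of the counting is not given in the sources used here, so its reads cannot be told apart from those of that neighbour.

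**Figure D5:**
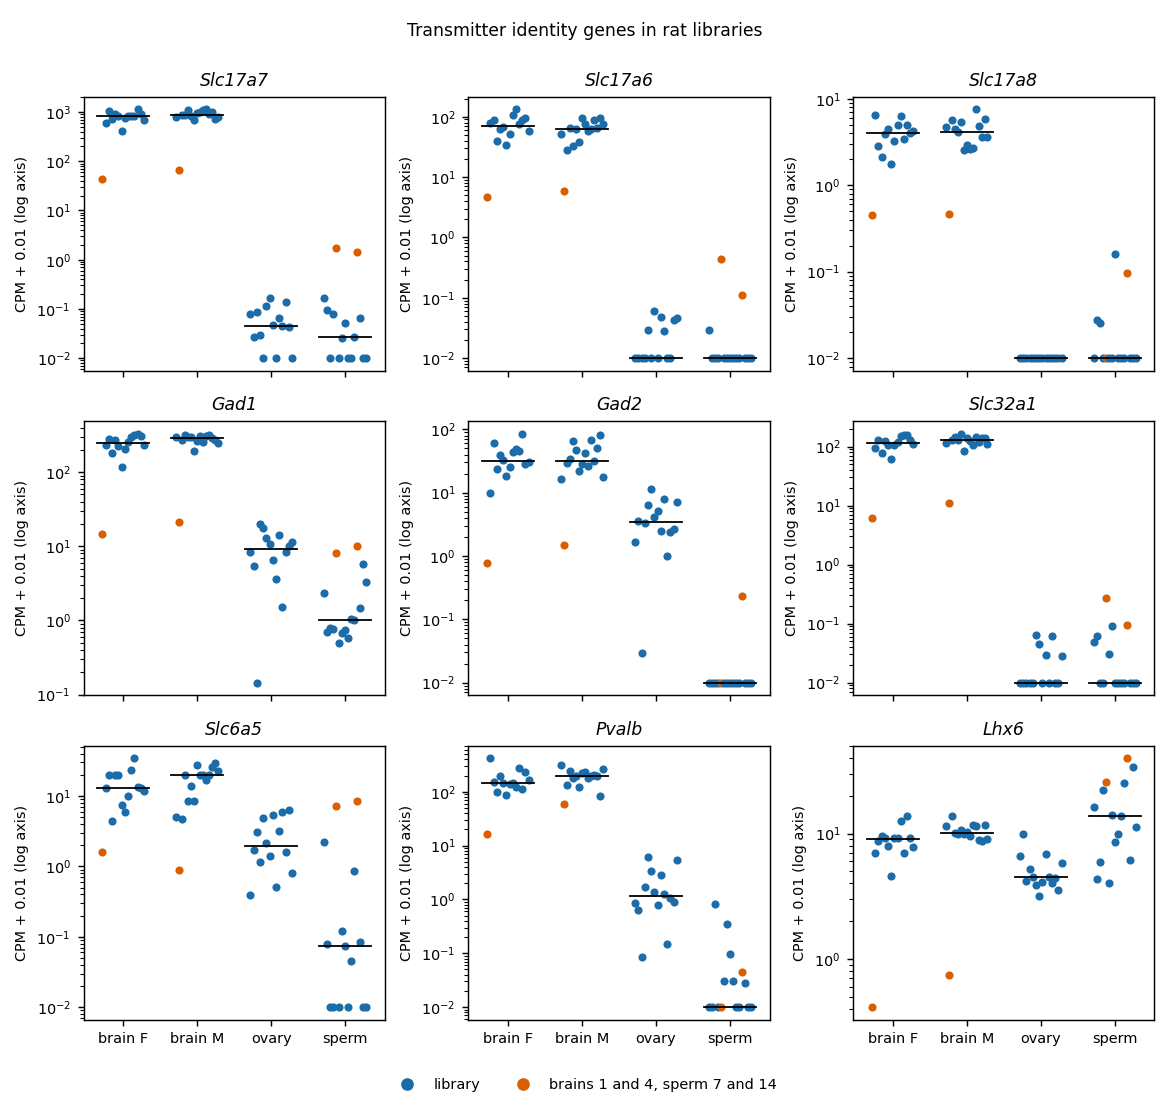
CPM (log axis, 0.01 added) of the 9 genes in rat female and male brain, ovary and sperm; dots are libraries, lines are medians, and orange dots are brains 1 and 4 and sperm libraries 7 and 14. LHX6 is the gene whose sperm median (13.8 CPM) is above its brain medians.

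In sheep sperm 6 of the 8 genes were called lower than in brain, beside 74.2% of all genes called in either direction. SLC32A1 had no count in any of the 5 libraries, so that its brain mean of 44.9 CPM was at least 3071-fold higher when set against 3 counts over the group. That fold is in CPM of the whole library total. The chosen ribosomal or placeholder entries took 22.4% to 85.2% of these libraries, so it is no bound for the counts outside those entries. SLC17A7 had 19 counts, LHX6 18, SLC17A6 9 and PVALB 4 over the 5 libraries. GAD2 had 75 counts, of which 57 were in sheep 688 (1.16 CPM), and a log2 fold change of -6.04 ± 0.61 (adjusted p = 5.98e-13), or -7.38 without sheep 688. SLC17A8 (-1.19 ± 0.87, adjusted p = 0.202) and SLC6A5 (-0.18 ± 0.74, adjusted p = 0.828) were not called, and the sign of the second changed in 6 of its alternatives. Brain enters this comparison as the mean log level of the 10 regions, and SLC6A5 was below 1 CPM on average in 8 of these and SLC17A8 in 6. LHX6 in sheep sperm was 0, 0.122, 0, 0.305 and 0.0633 CPM, and its log2 fold change was -3.88 ± 0.39 (adjusted p = 9.12e-13), lower than brain where rat sperm was higher. The difference between species was not tested. The sheep sperm libraries also held between 1565 and 39659 summed CPM of 4 leukocyte genes (with CD68 at 0) and between 773 and 21082 of 4 squamous epithelium genes, and the part of these cells in the values was not tested.

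Sheep and rat values are set side by side only as levels, because species, dissection and library kit cannot be told apart. With the 10 regions of each sheep summed, SLC32A1 was 44.9 ± 0.859 CPM (SD, n = 5), with a range of 43.8 to 46.0 CPM, and in male rats without brains 1 and 4 it was 128 ± 20.3 CPM (SD, n = 14). PVALB was 31.6 ± 6.60 and 198 ± 59.1 CPM, SLC6A5 was 2.18 ± 1.25 and 17.3 ± 8.17 CPM, and SLC17A7 was 379 ± 59.8 and 916 ± 141 CPM, in sheep and rat. GAD2 and LHX6 had the opposite order, at 137 ± 15.8 and 40.0 ± 20.0 CPM for GAD2 and 16.1 ± 1.04 and 10.51 ± 1.38 CPM for LHX6. The within-library log2 ratio of SLC17A6 to SLC17A7 was -3.89 ± 0.59 (SD, n = 15) in male and -3.46 ± 0.43 (SD, n = 14) in female rat brains.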

How the data were processed

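RNA of 55 sheep and 58 rat libraries was made into stranded mRNA libraries (a Kapa kit for sheep, a Watchmaker kit for rats) and read for 150 bases from both ends, per the labels. Per the labels' protocols, reads were trimmed with Trimmomatic 0.39, aligned with STAR 2.7.5a to ARS-UI_Ramb_v3.0 or GRCr8, and counted with Rsubread 2.20.0 in R 4.4.2. The deposited values are raw counts per gene. How strand and multi-mapping reads were handled is not given in the sources used here.

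Counts were tested with the edgeR 4.0.16 quasi-likelihood test in R 4.3.3, with TMM factors, the filterByExpr low-count filter and Benjamini-Hochberg adjustment over all genes tested. Pair tests of regions were adjusted within each pair. Calls needed an adjusted p under 0.05 and a log2 fold change of 1 or more in size, and in tests of any difference the adjusted p alone. The SE was computed back from the F statistic. Each fit used a common estimate of a gene's spread for all its groups. DESeq2 1.42.0 was an alternative. Ratios had 0.5 counts added to each gene. Levels are CPM of the plain library total. Folds against a group with no count use 3 counts over the group. The alternatives were other scaling factors, no low-count filter, DESeq2, a replicate block, each sheep left out, and the named libraries left out. The tests were checked on simulated counts. The members and lists were chosen with earlier results of these data known. Named genes of the lists are the called genes with the largest absolute fold change in each direction, up to 3. In sheep the same animals gave all regions, so replicate numbers pair libraries (median correlation of deviations 0.20). In rats the same correlation was smaller (0.0328 for sperm and brain, 0.00293 for ovary and brain). Replicates are separate animals. Some genes of the lists and of the likeness ranking are not reported here.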

Additional observations from a re-analysis of the deposited data

Results flagged for a closer look

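Of 88 sets of a gene in a group of 4 to 10 libraries, 12 held a library whose distance from the nearest other was large for the range of its group. For normal values chance flags about 1 in 20 groups. CPM need not be normal and the sets share the same sheep, so 12 of 88 cannot be read as an excess over that rate. Sheep 688 gave 5 of the 12 libraries, 687 and 694 each 3, and 699 gave 1.

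In pons, GAD2 of sheep 694 (77.1 CPM, next 22.5) and SLC17A7 of sheep 687 (97.1 CPM, next 29.1) stood above the others. In entorhinal cortex, PVALB of sheep 688 (31.7 CPM, next 8.38) and SLC17A8 of sheep 699 (16.2 CPM, next 2.94) did so, and in motor cortex SLC17A8 of sheep 687 (7.59 CPM, next 0.593). The last 3 belong to the libraries that went against their label. PVALB of sheep 688 was also high in prefrontal (71.0 CPM, next 27.4) and posterior parietal cortex (55.6 CPM, next 30.0), and SLC17A7 of the same sheep in basal ganglia (27.3 CPM, next 8.20). SLC17A6 of sheep 694 was high in cerebellum (15.5 CPM, next 3.55) and SLC6A5 of sheep 694 in basal ganglia (0.810 CPM, next 0.265). LHX6 of sheep 687 was low in basal ganglia (8.41 CPM, next 12.1). In sheep sperm, GAD2 of sheep 688 stood above the others (1.16 CPM, next 0.316).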

How the results depend on the processing

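Of 1128 gene results under other settings, 1079 kept their side of the threshold, 31 were no longer past it and 18 newly passed it. No called value changed sign, and 13 values called under neither setting did, 7 of them of SLC6A5 and 3 of SLC17A8. The settings "without libraries MC 687, EC 688 and EC 699", "without rat brain libraries 1 and 4" and "without rat sperm libraries 7 and 14", and SLC32A1 in place of GAD1 in sheep ratios, were chosen after seeing the data. The calls in cerebellum and pons, and those in basal ganglia but for SLC17A8, held in all 11 alternatives. Of 124 group levels, 17 moved by more than 1 SD with TMM-scaled totals.

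Sheep share their animals between regions, and the fit with the sheep as a block moved the count of called genes among the 8 from 1 to 3 in prefrontal cortex and left it within 1.5 times elsewhere; it called 0 of all genes among neocortical regions, where 4 were called without it. In rats, 2 of 15 sperm and 1 of 14 ovary libraries correlated best with the brain library of their own number. Such correlations between unlike tissues cannot decide whether a number stands for the same animal. The block changed the call of LHX6 in sperm (0.75) and ovary (-1.03) alone, and it moved SLC6A5 in sperm from -3.33 to -6.91.

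With each sheep left out in turn, the count among the 8 genes ran from 1 to 3 in entorhinal, 1 to 2 in frontal, 2 to 4 in hippocampus, 1 to 3 in motor, 1 to 2 in prefrontal and 1 to 2 in visual cortex. The count of all genes ran from 249 to 635 in entorhinal, 387 to 627 in frontal, 625 to 1168 in hippocampus, 229 to 456 in motor, 304 to 570 in prefrontal, 322 to 612 in posterior parietal and 281 to 535 in visual cortex, and 0 to 6 among neocortical regions. Fewer samples enter these fits. Without libraries MC 687, EC 688 and EC 699 all genes called were 737 in entorhinal cortex (474 with all libraries), 580 in motor cortex (347) and 8 among neocortical regions, and 2 of the 8 were called in posterior parietal cortex. DESeq2 also called 2 there, and 173 of all genes among neocortical regions. DESeq2 gave no adjusted p for 3 of the 9 genes in rat sperm.

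With no low-count filter, which tests more genes, all genes called were 22067 in rat sperm (12111 with it), 18799 in ovary (11832) and 19 between the sexes (12). Between the sexes DESeq2 called 22 and the fit without rat brain libraries 1 and 4 called 22. Where no cause is named, the cause was not tested. DESeq2 moved the share of called genes that were higher to 75.3% in frontal, 55.2% in prefrontal, 70.0% in posterior parietal and 72.8% in visual cortex. Other scalings shifted the median of all genes in sheep sperm by 0.25 (RLE), 0.73 (upper quartile, with 56.1% of called genes higher beside 44.6%) and 0.26 (DESeq2), and in rat sperm by -0.24 (RLE and DESeq2). LHX6 in rat sperm was 0.85 under RLE and under DESeq2. A gene with no count in any library of a group was limited to 3 counts over the summed total of that group, which covers counting error only.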
